A study of Mus musculus with 6 samples.

Results

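The SLC25 genes encode the mitochondrial carrier family, and their messenger RNAs were measured by RNA-seq in cells that carry the label SaOS2, the name of an established line from a human osteosarcoma. Every listed symbol that begins with SLC25A and a number was taken as a member, which gave 47 of the 17144 genes in the count tables. The 6 libraries carry the title letter D or C with a number, and 3 libraries were placed in group D and 3 in group C. DDTC(I) is the compound in the series title, but no label spells out either letter, a dose, a time or a vehicle. Differences are therefore D minus C, and which letter stands for the compound is not assumed. Nothing in the labels ties the libraries to separate cultures, and p-values reflect only how far these libraries spread, which may be technical.

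Carriers of this family sit in the inner mitochondrial membrane, apart from a few in other membranes such as the peroxisomal membrane, and move metabolites, nucleotides, cofactors and ions between the cytosol and the matrix. Many of them exchange a solute on the inside for another on the outside, as the adenine nucleotide translocases do when they export ATP against ADP. The proteins are made in the cytosol, received at the outer membrane by TOMM70 and inserted into the inner membrane by the TIM22 complex. Growing cells draw on them for export of citrate for lipid synthesis, for the malate-aspartate shuttle, and for supply of folate, S-adenosylmethionine and iron to the matrix.

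The libraries held 18446443 to 20602771 counts, so that 3 counts, used as a floor for counting error only, were worth 0.146 to 0.163 CPM (a count scaled to its library total). Within D, replicates 2 and 3 stood apart more than any pair of C libraries, so results are also given without single libraries where that changes a call. By its labels the organism is the mouse, whereas the symbols follow human naming and 0 of the 47 member symbols matched a mouse symbol in letter case. Of 10 osteoblast lineage markers, 3 (SP7, BGLAP and IBSP) had at most 3 counts in every library and ALPL, the alkaline phosphatase for which SaOS2 is known, had 8 to 15 counts, which goes against the label, so the cells are named by their label only. Some marker lists moved with the groups. The summed FPKM (a count scaled to gene length and library total) of the osteoblast list was 193 to 218 in D and 590 to 692 in C, with 1 of 7 tested members higher and 5 lower. Most of that sum came from SPARC alone, with 179 to 203 FPKM in D and 545 to 639 in C. For fibroblast markers the summed FPKM was 133 to 154 in D and 298 to 309 in C, with 3 of 4 tested members lower. THY1 held most of it, with 122 to 145 FPKM in D and 274 to 284 in C. Endothelial markers had 2 of 3 tested members lower (1.63 to 1.79 FPKM in D, 3.14 to 3.75 in C), and epithelial markers 2 of 3 higher (58.8 to 74.7 in D, 48.9 to 54.0 in C). Of 3 tested macrophage and blood markers, the scarce CD163 was higher, and CD68, which held most of their FPKM, was not called (−0.02). The 1 tested muscle marker was lower and the 1 tested adipocyte marker was not called. The part of these markers in the differences below was not tested. In bulk RNA, fewer cells of a type and less RNA per cell cannot be told apart.

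SLC25 transcripts made up a small and similar part of every library, and a few housekeeping carriers held most of it. Member counts came to 0.202%, 0.183% and 0.216% of the library in D replicates 1, 2 and 3 and to 0.203%, 0.211% and 0.202% in C, so the groups overlapped. Per length, the 6 most abundant rows were SLC25A5, SLC25A39, SLC25A3, SLC25A32, SLC25A11 and SLC25A6-2. They held 71.8% ± 2.02 of the summed member FPKM in D and 66.5% ± 0.491 in C (SD, n = 3 each). SLC25A5, the adenine nucleotide translocase ANT2 of dividing cells, led with 288 ± 39.5 FPKM in D and 256 ± 13.6 FPKM in C. SLC25A39, the mitochondrial glutathione carrier, followed with 98.0 ± 15.3 FPKM in D and 126 ± 5.82 FPKM in C. SLC25A3, the phosphate carrier, which also brings copper into the matrix, had 75.9 ± 10.3 FPKM in D and 58.8 ± 3.89 FPKM in C, on a listed length of 6109 bp. Of the 47 rows, 38 had a mean above 1 FPKM, and the plot of FPKM by gene shows the fall from the leading carriers to the rest.

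**Figure D1:**
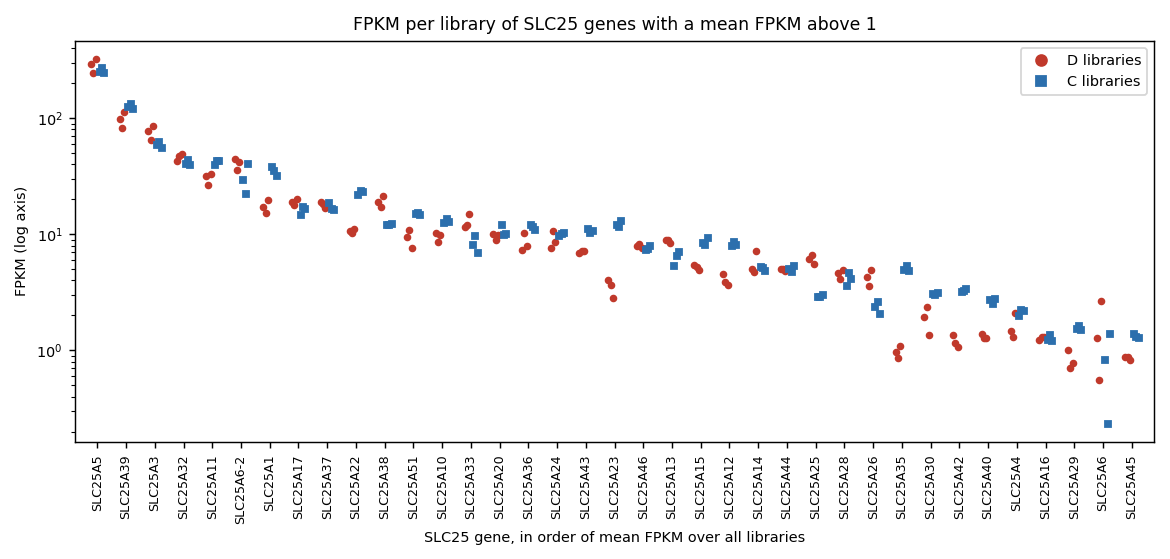
FPKM per library on a log axis for 37 of the 38 SLC25 rows with a mean above 1 FPKM, ordered by that mean, with D libraries as circles and C libraries as squares. SLC25A5 lies above all other carriers in every library, and the D points of SLC25A35, SLC25A23 and SLC25A42 sit well below their C points.

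Of the 47 rows, 6 had too few counts to be tested. SLC25A18, SLC25A21, SLC25A41, SLC25A47, SLC25A48 and SLC25A52 had at most 11 counts in any library. Among them is SLC25A21, the oxodicarboxylate carrier, with 8, 7 and 7 counts in D and 10, 11 and 7 in C. SLC25A52, a close copy of the NAD carrier gene SLC25A51, had 1 count in D replicate 1 and 0 elsewhere. Where SLC25A52 had 0 counts, the floor of 3 counts allows at most 0.162 CPM. No limit is given for D replicate 1.

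Carriers moved in both directions between D and C, and some closely related carriers moved oppositely. Of the 41 tested rows, 10 were higher and 15 lower in D at a Benjamini-Hochberg adjusted p under 0.05 in edgeR's quasi-likelihood test, beside 26.8% of all tested genes called higher and 27.7% called lower. The member shares were 24.4% and 36.6%. Called members that changed at least 2-fold were 3 higher and 4 lower (7.32% and 9.76%), beside 8.37% and 10.1% of all tested genes, so these shares were near the background. They include the scarce SLC25A34 (higher) and SLC25A27 (lower), each kept by the filter on low counts only through the group where it was high. The median log2 change of the tested members was −0.01, and that of all tested genes was −0.02. All 3 D libraries lay above all 3 C libraries for 12 members and below them for 17, which is 29.3% and 41.5%, beside 30.6% and 32.1% of all tested genes. Scaled by library size only, 7 members were higher and 19 lower (17.1% and 46.3%), beside 20.4% and 35.1% of all tested genes, and the median of all genes shifted to −0.17. Without C replicate 1, 6 members were higher and 12 lower (14.6% and 29.3%), beside 20.4% and 21.6% of all tested genes. Without D replicate 2, 15 were higher and 14 lower (35.7% and 33.3%), beside 30.4% and 30.3%. At an adjusted p under 0.01, 5 members were higher and 12 lower (12.2% and 29.3%), beside 18.9% and 19.5%.

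**Figure D2:**
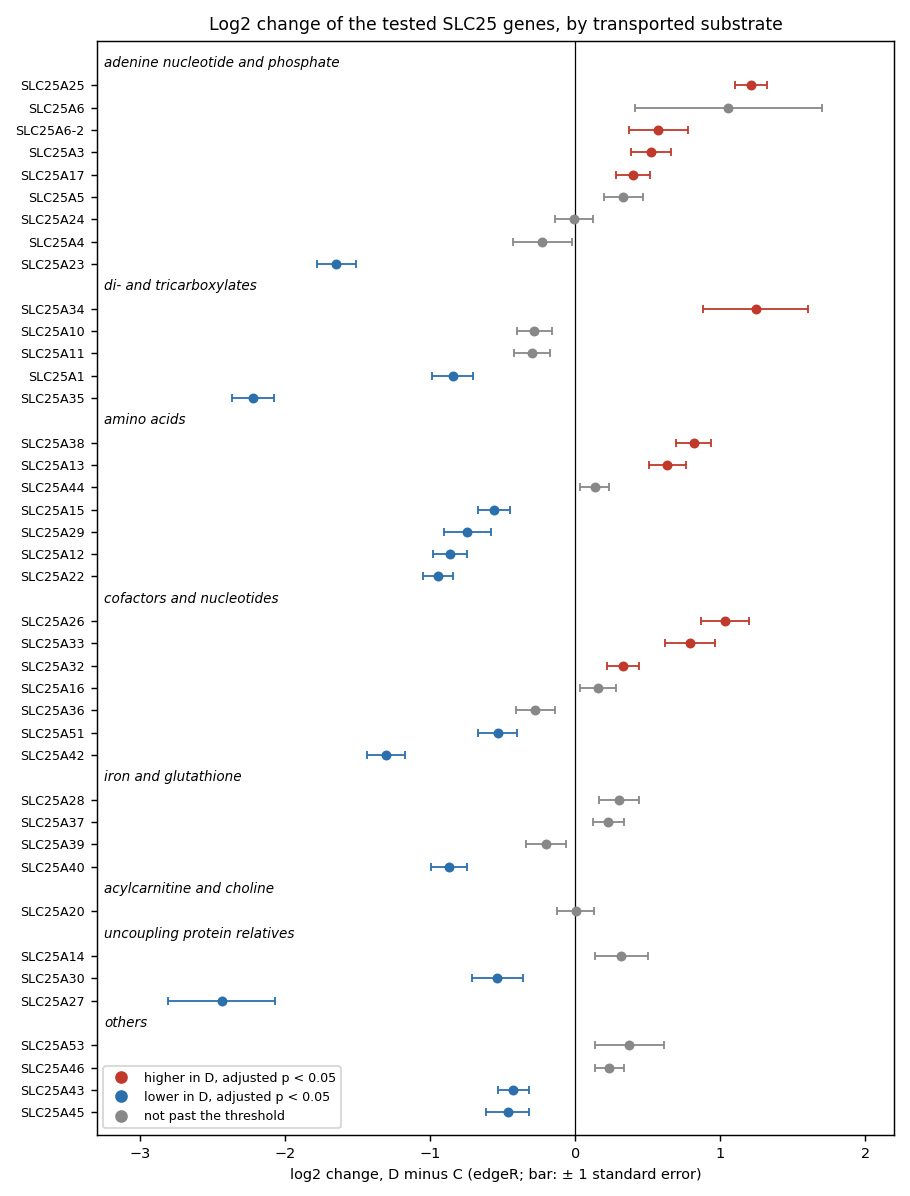
Log2 change (D minus C) of 40 of the 41 tested SLC25 rows with ± 1 standard error, grouped by the solute class of the carrier; red points were called higher in D, blue points lower in D and grey points passed no threshold. SLC25A25 at 1.21 and SLC25A23 at −1.65 lie on opposite sides although both are ATP-Mg/phosphate carriers.

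Of 9 tested rows for carriers of adenine nucleotides and phosphate, 4 were higher and 1 was lower. This count and those of the classes below stand beside 26.8% higher and 27.7% lower of all tested genes. With so few rows in a class, they are descriptions and no class was tested. SLC25A25, a calcium-regulated ATP-Mg/phosphate carrier that sets the matrix nucleotide pool, had 31.5, 33.5 and 30.1 normalized CPM (scaled with TMM factors) in D libraries and 13.6, 13.5 and 14.1 in C libraries. Its groups did not overlap, and the log2 change was 1.21 ± 0.11 (SE; adjusted p = 5.7e-05). SLC25A23, a related carrier with the same substrates, showed the opposite, with 17.5, 15.8 and 12.9 CPM in D libraries and 47.8, 45.8 and 51.4 in C libraries. It fell by 1.65 ± 0.14 on the log2 scale (adjusted p = 4.2e-05). SLC25A24, another member of this subgroup, had 36.6, 50.1 and 42.8 CPM in D libraries and 41.97, 44.3 and 44.2 in C libraries, and the D libraries spread around the C values. The subgroup therefore changed in make-up: SLC25A25 gave 33.01% ± 1.43 of its summed FPKM in D and 11.7% ± 0.161 in C, and SLC25A23 gave 18.96% ± 3.17 in D and 48.5% ± 1.40 in C.

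The phosphate carrier SLC25A3, which supplies phosphate for ATP synthesis, had 493, 408 and 569.6 CPM in D libraries and 343, 364 and 317 in C libraries, and every D library lay above every C library. Its log2 change was 0.52 ± 0.14 (adjusted p = 0.011), and the call was lost without C replicate 3 (0.47, adjusted p = 0.054). Among the ADP/ATP translocases, SLC25A5 had 402, 331 and 463 CPM in D and 313, 337 and 302 in C. D replicate 2 lay within the C range, and the log2 change of 0.33 ± 0.13 did not pass the test (adjusted p = 0.066), while without D replicate 2 it was 0.48 and passed (adjusted p = 0.0050), as it did in DESeq2 (0.36, adjusted p = 0.045). SLC25A5 has processed pseudogenes that can share its reads. SLC25A4, the translocase of heart and muscle, was low at 6.71, 5.93 and 10.2 CPM in D libraries and 8.30, 9.29 and 9.15 in C libraries. It was not called (−0.23, adjusted p = 0.36), and without D replicate 3 it was lower (−0.48, adjusted p = 0.013).

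SLC25A6, the translocase ANT3, whose gene lies in the region shared by the X and Y chromosomes, was listed in a pair of rows. SLC25A6-2 held most of the counts, with 67.7, 53.04 and 67.0 CPM in D libraries and 40.3, 30.9 and 55.0 in C libraries. D replicate 2 lay below C replicate 3, so the groups overlapped, and the log2 change of 0.57 ± 0.20 passed narrowly (adjusted p = 0.041). It did not pass without C replicate 1 (0.54), C replicate 2 (0.39) or D replicate 1 (0.51), nor with library size only (0.42), on log2(FPKM + 1) (0.44) or with length trends removed (0.40). With both rows summed, an alternative chosen after seeing the data, it was 0.59 (adjusted p = 0.043). SLC25A17, the peroxisomal carrier of coenzyme A and adenine nucleotides, had 45.1, 42.2 and 50.1 CPM in D libraries and 31.7, 37.1 and 35.7 in C libraries. It rose by 0.40 ± 0.12 on the log2 scale (adjusted p = 0.020), a call lost without C replicate 1 (0.33), C replicate 3 (0.41) or D replicate 1 (0.41), with library size only (0.24) and on log2(FPKM + 1) (0.23).

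Of 5 tested rows grouped with carriers of di- and tricarboxylates, 1 (SLC25A34) was higher and 2 (SLC25A1 and SLC25A35) were lower. The placing of SLC25A35 and its relative SLC25A34 in this class is provisional. SLC25A1, the citrate carrier that exports citrate for fatty acid and sterol synthesis, had 32.7, 28.4 and 39.1 CPM in D libraries and 65.6, 60.2 and 54.3 in C libraries. All D libraries were below all C libraries, a log2 change of −0.85 ± 0.14 (adjusted p = 0.0013). SLC25A35, an orphan carrier whose substrate is not settled, had 4.01, 3.49 and 4.71 CPM in D libraries and 18.7, 20.1 and 18.2 in C libraries. This 4.67-fold lower level (log2 change −2.22 ± 0.14, adjusted p = 1.5e-05) was the largest change among members whose mean log2 CPM reached 3. Its relative SLC25A34 was scarce, with 19, 15 and 12 counts in D and 4, 9 and 9 in C, and rose by 1.24 ± 0.36 on the log2 scale (adjusted p = 0.018). Only the D libraries of SLC25A34 met the filter on low counts, so this call is a description and no separate support for a rise. Its call was lost without C replicate 1 (0.99) or D replicate 1 (1.04). The oxoglutarate carrier SLC25A11, which works in the malate-aspartate shuttle, had 65.2, 54.4 and 71.9 CPM in D libraries and 73.8, 81.5 and 80.5 in C libraries. Its D libraries lay below its C libraries, as did those of the dicarboxylate carrier SLC25A10 (23.6, 19.4 and 23.8 CPM in D, 26.2, 28.4 and 26.8 in C), but neither passed the test (adjusted p = 0.069 for SLC25A11 and 0.078 for SLC25A10). Without D replicate 3 both were lower, SLC25A11 by a log2 change of −0.38 and SLC25A10 by −0.32, and both were also called with library size only (−0.46 and −0.44), on log2(FPKM + 1) (−0.45 and −0.40) and with length trends removed (−0.41 and −0.37).

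Carriers of amino acids were divided, with 2 of 7 tested members higher and 4 lower. SLC25A13 and SLC25A12 encode the aspartate/glutamate carriers citrin and aralar, which export aspartate in the malate-aspartate shuttle. SLC25A13 had 32.4, 32.4 and 32.02 CPM in D libraries and 17.7, 21.6 and 23.1 in C libraries, a log2 change of 0.63 ± 0.13 (adjusted p = 0.0032). SLC25A12 had 19.2, 16.2 and 16.2 CPM in D libraries and 30.2, 32.8 and 30.8 in C libraries, a log2 change of −0.86 ± 0.12 (adjusted p = 0.00044). The more abundant isoform per length thus differed: SLC25A13 gave 66.1%, 69.8% and 69.6% of the summed FPKM of the pair in D libraries and 40.3%, 43.3% and 46.5% in C libraries.

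SLC25A38, the glycine carrier needed at the start of heme synthesis, had 68.6, 61.7 and 80.9 CPM in D libraries and 39.9, 39.8 and 40.1 in C libraries. The C libraries were almost equal and all D libraries were higher, with a log2 change of 0.82 ± 0.12 (adjusted p = 0.00067). SLC25A22, the glutamate carrier GC1, had 39.8, 37.9 and 43.7 CPM in D libraries and 74.4, 80.9 and 79.0 in C libraries, a fall of 0.95 ± 0.10 on the log2 scale (adjusted p = 0.00014). SLC25A15, the ornithine carrier of the urea cycle, had 21.8, 20.8 and 20.8 CPM in D libraries and 30.6, 29.4 and 33.5 in C libraries (−0.56 ± 0.11, adjusted p = 0.0027). SLC25A29, a carrier of basic amino acids, was lower as well, with 4.20 ± 0.773 CPM in D and 7.03 ± 0.325 in C (−0.75 ± 0.16, adjusted p = 0.0050). For these 3 carriers no D library reached the lowest C library. SLC25A44, a carrier of branched-chain amino acids, had 40.4 ± 0.326 CPM in D and 36.9 ± 1.87 in C and was not called (adjusted p = 0.30), although its groups did not overlap, and it was called higher only with length trends removed (0.34, adjusted p = 0.026).

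Carriers of cofactors and nucleotides were split evenly, with 3 of 8 tested members higher and 3 lower. SLC25A26, which imports S-adenosylmethionine for methylation in the matrix, had 31.8, 26.5 and 38.7 CPM in D libraries and 15.9, 17.7 and 13.8 in C libraries, a log2 change of 1.03 ± 0.16 (adjusted p = 0.00097). SLC25A33, a pyrimidine nucleotide carrier, had 19.4, 19.7 and 26.1 CPM in D libraries and 12.3, 14.9 and 10.4 in C libraries (0.79 ± 0.17, adjusted p = 0.0051). In both cases the lowest D library was above the highest C library. SLC25A36, the other pyrimidine nucleotide carrier, had 41.5, 57.7 and 46.6 CPM in D libraries and 61.5, 59.2 and 56.0 in C libraries. D replicate 2 lay within the C range, and the change was not called (−0.28 ± 0.14, adjusted p = 0.11), whereas without D replicate 2 it was lower (−0.38, adjusted p = 0.014), as it was with library size only (−0.43) and on log2(FPKM + 1) (−0.40).

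SLC25A42, a carrier of coenzyme A into the matrix, had 5.25, 4.42 and 4.32 CPM in D libraries and 11.2, 11.6 and 11.8 in C libraries, a fall of 1.31 ± 0.13 on the log2 scale (adjusted p = 1.0e-04). SLC25A51, the NAD carrier, had 11.6, 13.1 and 9.77 CPM in D libraries and 16.7, 16.96 and 16.3 in C libraries (−0.54 ± 0.13, adjusted p = 0.0085). SLC25A32, the carrier linked to folate and flavin import, had 128, 141 and 156 CPM in D libraries and 111, 119 and 109 in C libraries. All its D libraries were above its C libraries, but the log2 change was small (0.33 ± 0.11, adjusted p = 0.031), and the call was lost without C replicate 1 (0.31), C replicate 2 (0.36) or C replicate 3 (0.30), with library size only (0.17) and on log2(FPKM + 1) (0.17). SLC25A16 was not called, with 10.5 ± 0.573 CPM in D and 9.40 ± 0.670 in C.

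Among iron and glutathione carriers 1 of 4 changed. SLC25A40, which like SLC25A39 is linked to glutathione import, had 5.81, 5.36 and 5.68 CPM in D libraries and 10.5, 9.66 and 10.7 in C libraries (−0.87 ± 0.12, adjusted p = 0.00052). SLC25A39 itself had 161, 135 and 196 CPM in D libraries and 187, 199 and 180.3 in C libraries. These groups overlapped through D replicate 3 and the log2 change of −0.20 ± 0.14 was not called (adjusted p = 0.25), although without D replicate 3 it was −0.34 and passed (adjusted p = 0.014), as it did with length trends removed (−0.35), with library size only (−0.36) and on log2(FPKM + 1) (−0.37). The mitoferrins, which bring iron into the matrix for heme and iron-sulfur clusters, were not called. SLC25A37 (mitoferrin 1) had 52.1 ± 2.25 CPM in D and 44.5 ± 3.48 in C (adjusted p = 0.10), and SLC25A28 (mitoferrin 2) had 25.2 ± 2.75 in D and 20.5 ± 2.64 in C (adjusted p = 0.10). SLC25A28 was called higher with length trends removed (0.40) and without D replicate 2 (0.41).

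The remaining carriers held 4 called members, all lower. They were 2 of 3 tested uncoupling protein relatives and 2 of 4 tested carriers outside the solute classes, beside 27.7% of all tested genes called lower. SLC25A27, an uncoupling protein relative known from brain, was scarce, with 4, 3 and 4 counts in D and 21, 31 and 18 in C, and showed a log2 change of −2.44 ± 0.37 (adjusted p = 0.00074). Only the C libraries of SLC25A27 met the filter on low counts, so this call is a description and no separate support for a fall. SLC25A30, another relative of the uncoupling proteins, had 9.98 ± 2.42 CPM in D and 14.5 ± 0.180 in C (−0.54 ± 0.17, adjusted p = 0.028). The less studied carriers SLC25A43 and SLC25A45 were lower too, SLC25A43 with 25.97 ± 1.16 CPM in D and 34.95 ± 1.32 in C (−0.43 ± 0.10, adjusted p = 0.0082) and SLC25A45 with 2.86 ± 0.0196 in D and 3.96 ± 0.182 in C (−0.47 ± 0.15, adjusted p = 0.026). The call of SLC25A30 was lost without C replicate 1 (−0.54), C replicate 2 (−0.55), C replicate 3 (−0.53) or D replicate 1 (−0.54). That of SLC25A45 was lost without any 1 of the 6 libraries (−0.50 to −0.43) and in DESeq2 (−0.44). SLC25A14, SLC25A46, SLC25A53 and the acylcarnitine carrier SLC25A20 did not pass. SLC25A20, which carries fatty acids into the matrix for oxidation, had 17.995 ± 1.46 CPM in D and 17.98 ± 1.96 in C, and the 95% interval of its log2 change was −0.29 to 0.29. SLC25A46, an outer membrane protein linked to mitochondrial shape, had 40.7 ± 0.905 CPM in D and 34.6 ± 1.25 in C without overlap (adjusted p = 0.078), and was called higher in DESeq2 (0.26) and with length trends removed (0.31). SLC25A14, a relative of the uncoupling proteins, had 24.3 ± 6.62 CPM in D and 19.5 ± 0.902 in C, and SLC25A53 had 2.42 ± 0.669 CPM in D and 1.86 ± 0.0537 in C. Without D replicate 2, SLC25A14 (0.48) and SLC25A53 (0.62) were called higher.

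**Figure D3:**
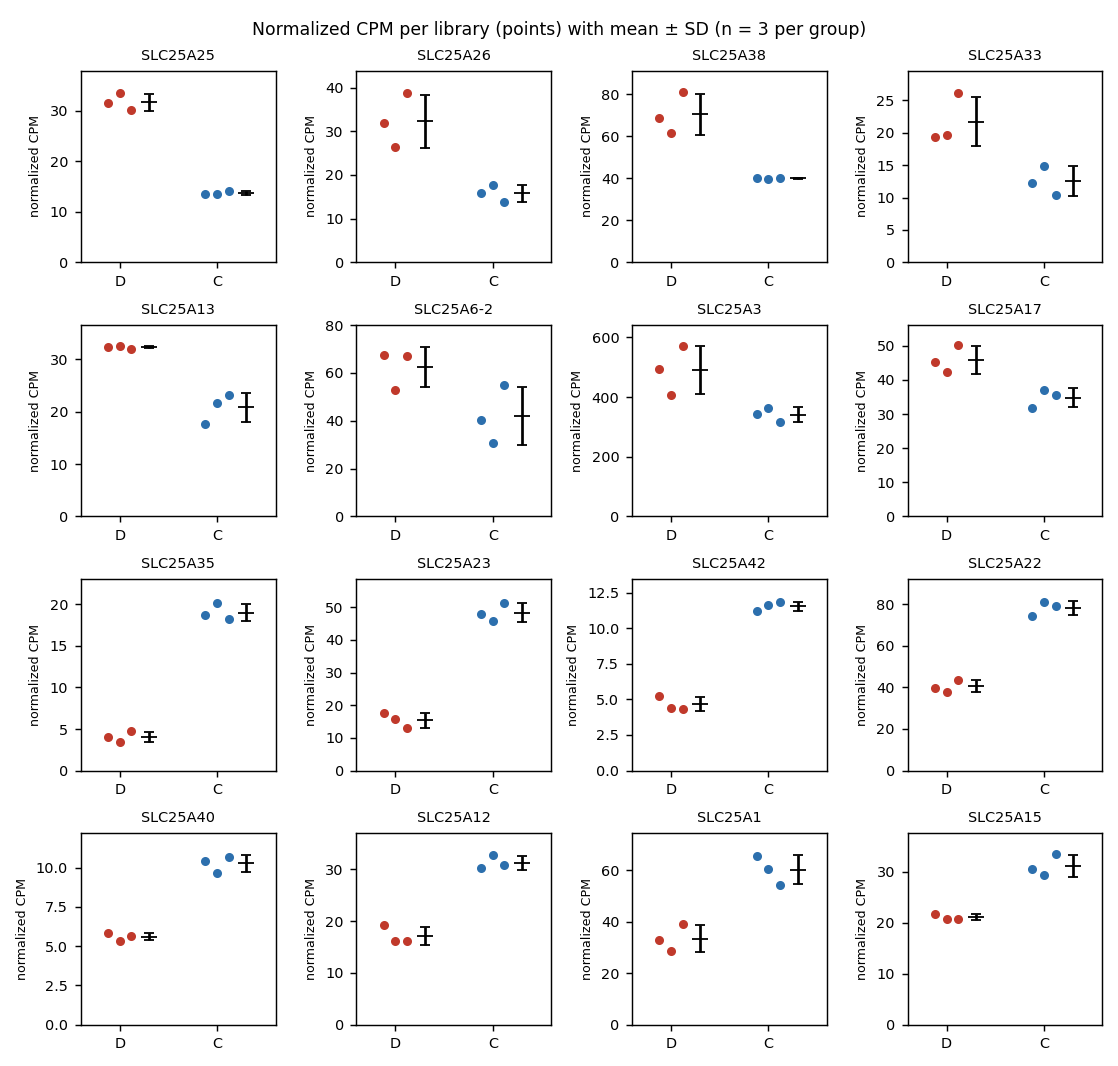
Normalized CPM per library, D left of C, for the 8 called SLC25 rows with the largest rise (upper panels) and the 8 with the largest fall (lower panels) among rows whose mean log2 CPM reached 3; bars give the mean ± SD of 3 libraries and all axes start at 0. The groups are apart in every panel except SLC25A6-2, in which a D library at 53.04 lies below a C library at 55.0.

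The ratio of related carriers within a library does not depend on the scaling of that library, and such ratios differed most for the ATP-Mg/phosphate and aspartate/glutamate carriers. Of 14 pairs computed from FPKM, the D and C values of 9 did not overlap (64.3%), which is near the 62.7% of single genes, over all tested, whose CPM values did not overlap. The SLC25A23 to SLC25A25 ratio was 0.655, 0.556 and 0.507 in D libraries and 4.14, 4.02 and 4.31 in C libraries, a log2 difference of −2.87. For SLC25A13 over SLC25A12 it was 1.95, 2.31 and 2.28 in D libraries and 0.675, 0.762 and 0.868 in C libraries (1.51). These ratios crossed equality between the groups. So did SLC25A24 over SLC25A23, at 1.90 to 3.01 in D and 0.782 to 0.880 in C, and SLC25A36 over SLC25A33, at 0.529 to 0.867 in D and 1.18 to 1.59 in C. The pair of glutathione-linked carriers, SLC25A39 over SLC25A40, had ratios of 64.6 to 88.7 in D and 43.2 to 52.8 in C. The SLC25A4 to SLC25A5 ratio stayed far below equality in all libraries, at 0.00494 to 0.00654 in D and 0.00785 to 0.00897 in C. The other pairs without overlap were SLC25A24 over SLC25A25 (1.25, 1.61 and 1.53 in D libraries; 3.31, 3.54 and 3.37 in C libraries), SLC25A1 over SLC25A10 (1.69, 1.79 and 2.003 in D; 3.05, 2.59 and 2.47 in C) and SLC25A51 over SLC25A32 (0.224, 0.229 and 0.154 in D; 0.372, 0.351 and 0.370 in C). Ratios of the mitoferrins (SLC25A37 over SLC25A28, 3.44 to 4.37 in D and 3.57 to 5.19 in C) and of SLC25A10 over SLC25A11 (0.297 to 0.325 in D and 0.298 to 0.318 in C) overlapped. The exact 2-sided permutation p was 0.1 for each of the 9 pairs without overlap, the smallest that 3 libraries against 3 allow, and 0.156 after Benjamini-Hochberg adjustment over the 14 pairs, so the test cannot pass 0.05 in this design.

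**Figure D4:**
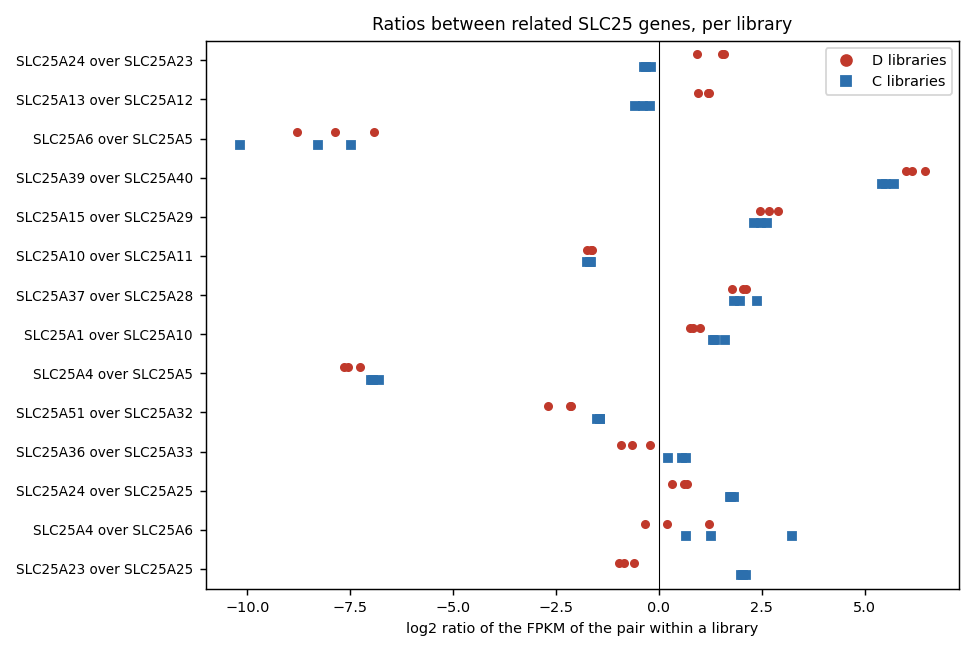
Log2 ratio of the FPKM of related SLC25 genes within each library, with D libraries as circles above the C libraries as squares of the same pair, ordered by the D minus C difference. SLC25A23 over SLC25A25 lies below 0 in the 3 D libraries and near 2 in the C libraries, while the SLC25A10 over SLC25A11 points coincide.

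Genes that work with the carriers were read from 3 lists. Of 16 genes of the import route, 7 were higher and 0 lower in D, with a median log2 change of 0.34, beside the 26.8% higher and 27.7% lower of all tested genes. TIMM10B, an import chaperone subunit of the TIM22 complex, had 47.4 ± 2.38 CPM in D and 26.3 ± 1.38 in C (0.85 ± 0.11, adjusted p = 0.00028). TOMM40, the pore of the outer membrane (0.62 ± 0.12), and TOMM20, a receptor (0.48 ± 0.10), also rose. TOMM70, the receptor for carriers, rose by 0.25 ± 0.09 (191 ± 5.84 CPM in D, 162 ± 5.71 in C, adjusted p = 0.049), and TIMM22, the insertion channel, by 0.44 ± 0.11, both named after their values were seen. Without D replicate 2, 11 genes of the route were higher and 0 lower, beside 30.4% and 30.3% of all tested genes. With library size only, 5 were higher and 2 lower, beside 20.4% and 35.1% of all tested genes.

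Of 22 other mitochondrial transporter genes, 6 were higher and 4 lower (27.3% and 18.2%), beside 26.8% and 27.7% of all tested genes. SFXN5, a sideroflexin, had 17.5 ± 1.23 CPM in D and 7.34 ± 0.687 in C (1.25 ± 0.13), and MICU2, a regulator of the calcium uniporter, rose (0.93 ± 0.14). SFXN1, the mitochondrial serine carrier, had 43.6 ± 1.37 CPM in D and 80.8 ± 2.68 in C (−0.89 ± 0.10). SFXN3, another sideroflexin, fell by 0.91 ± 0.10 on the log2 scale, and UCP2, an uncoupling protein of this carrier family under its own symbol, had 0.593 ± 0.200 CPM in D and 2.22 ± 0.497 in C (−1.90 ± 0.31).

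Of 30 enzyme genes that make or use carrier substrates, 10 were higher and 6 lower (33.3% and 20%), beside 26.8% and 27.7% of all tested genes. With library size only, 8 were higher and 11 lower, beside 20.4% and 35.1% of all tested genes. The mitochondrial folate enzyme genes MTHFD2 (589.6 ± 40.6 CPM in D, 214 ± 9.71 in C, 1.46 ± 0.10) and MTHFD1L (187 ± 9.69 in D, 64.9 ± 2.98 in C, 1.53 ± 0.10) rose beside the smaller change of SLC25A32. GOT1, the cytosolic aminotransferase of the malate-aspartate shuttle, had 235 ± 30.6 CPM in D and 76.7 ± 3.25 in C (1.62 ± 0.12), while the mitochondrial GOT2 had 296 ± 6.96 in D and 340 ± 12.2 in C and was not called (adjusted p = 0.095). The carnitine enzyme genes CPT2 (8.81 ± 0.787 CPM in D, 18.99 ± 2.18 in C, −1.11 ± 0.13) and CRAT (−0.85 ± 0.10) fell, while CPT1A, the carnitine enzyme of the outer membrane, was not called (0.09 ± 0.17, adjusted p = 0.68). OAT, the matrix aminotransferase of ornithine, fell by 0.86 ± 0.11 on the log2 scale, in the direction of SLC25A15. Named after their values were seen, ALAS1 (0.64 ± 0.10) and FECH (0.71 ± 0.10), the first and last enzymes of heme synthesis, rose like SLC25A38. The mitoferrins were not called, and ABCB10 of the transporter list, also named after its values were seen, was lower (−0.74 ± 0.13). COASY, an enzyme of coenzyme A synthesis named in the same way, fell by 0.59 ± 0.10. Of the pantothenate kinase genes, which act earlier in coenzyme A synthesis, PANK2 rose (0.40 ± 0.10, adjusted p = 0.011), and PANK1 (−0.32 ± 0.20) and PANK3 (0.19 ± 0.21) were not called. Whether carriers and enzymes moved together was not tested.

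**Figure D5:**
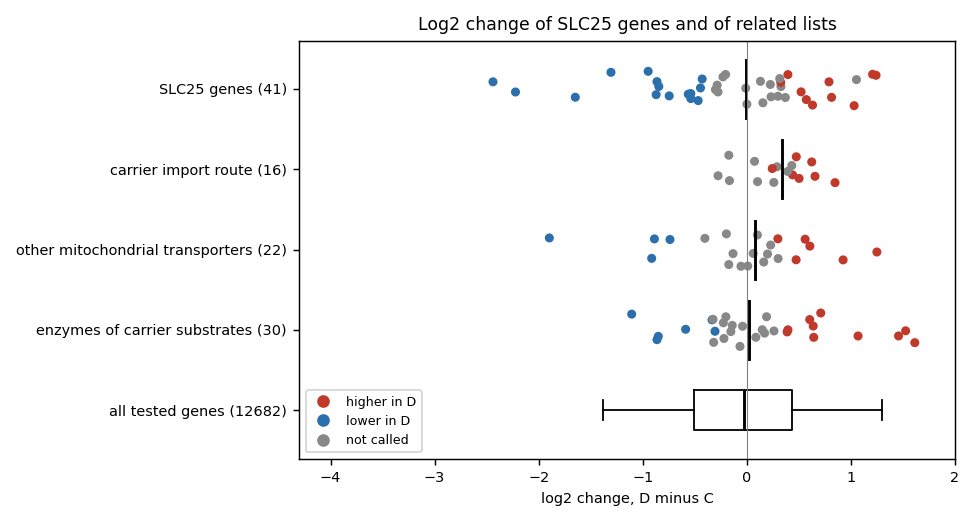
Log2 change (D minus C) of the tested SLC25 rows and of the 3 lists, each point a gene coloured by its call and the vertical bar the median of the list; the box for all 12682 tested genes gives the quartiles with whiskers at the 5th and 95th percentiles. The SLC25 median is −0.01, and only the import route has no called gene below 0.

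Member values varied more among D libraries than among C libraries, with a median SD of log2 CPM of 0.20 in D and 0.07 in C, beside 0.21 and 0.10 over all tested genes. For this SD, 0.5 was added to each CPM value. The median deviation of the tested members from the C mean was −0.20, −0.13 and 0.09 on the log2 scale in D replicates 1, 2 and 3. D libraries also differed along gene length: the slope of log2 CPM on log2 length, taken as the deviation from the D mean, was 0.01, 0.17 and −0.18. Across the 41 members, Spearman's rho between the change and gene length was 0.04, a description over genes that share the libraries, and over all tested genes rho was −0.18. Once length trends were taken out of the libraries, 12 members were higher and 18 lower (29.3% and 43.9%), beside 32.9% and 30.4% of all tested genes.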

How the data were processed

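The authors deposited, for each library, whole-number gene counts without normalization and FPKM values for the same gene symbols. Each FPKM equalled the count divided by the library total and a fixed gene length for 17144 of 17144 genes (relative tolerance 0.001), and these lengths were used here. The sources used here name no aligner, counter or strand setting (not given in the sources used here); per the submitters' processing notes the builds were the mouse builds GRCm38 and mm10, so no coordinates or sequences are given for these human-style symbols. Libraries in a group differed by more than sampling noise (chi-square per degree of freedom 6.21 to 90.5).

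The test of the counts used edgeR 4.0.16 under R 4.3.3: filterByExpr (12682 genes kept), TMM factors, quasi-likelihood F test, 2-sided, group as the only term, Benjamini-Hochberg adjustment over all tested genes. All adjusted p-values are from this test unless another tool is named, and the SE is the log2 change divided by the square root of F. Paralog ratios used the FPKM within a library and an exact permutation test. Alternatives were DESeq2 1.42.0, limma-voom (limma 3.58.1), other scalings, filters and thresholds, a replicate block, leaving out each library, removal of length trends (lowess, span 0.4) and limma-trend on log2 of FPKM plus 1 or 0.1. The tests were tried on simulated counts.

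Members and lists were chosen with earlier results of these data known. Per-library values are given for the 8 called members with the largest change in each direction where the mean log2 CPM reached 3, the 6 rows with the highest FPKM and pairs whose ratios did not overlap; up to 3 called genes per direction are named from each list, and further genes of the lists were named after their values were seen. A lower member and a higher gene of the transporter list are counted but not reported here by name.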

Additional observations from a re-analysis of the deposited data

How the results depend on the processing

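Of the 25 called members, 17 (5 higher and 12 lower) kept their call and direction in every alternative that gave them a log2 change. The other 8 lost the call in at least 1. The stricter thresholds, an adjusted p under 0.01 and at least a 2-fold change, are not among the alternatives in these counts. Of the 16 members not called, 12 were called in at least 1 alternative. The matching shares over all tested genes were not computed, so these counts are not read as a trait of the family. By construction, at least a 2-fold change left 3 members higher and 4 lower, 1062 and 1284 of all genes, 0 higher in the import route, 1 and 1 of the other transporters, and 4 and 1 of the enzymes, and an adjusted p under 0.01 left 5 members higher. Library size only gave 2 lower genes in the import route and 11 lower enzymes, beside 35.1% of all tested genes called lower. Length trends removed gave 2 lower import genes. On log2(FPKM + 1) with the FPKM filter, 6 members and 2213 of all genes were higher, 2 import genes and 11 enzymes lower, and the member median was −0.21; with 0.1 in place of 1 these were 6, 2209, 2, 11 and −0.27. Without the filter, 2 import genes and 10 enzymes were lower. In these FPKM fits, in the same order, 37%, 36.7% and 25.9% of all tested genes were called lower. The causes were not tested.

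Leaving out each library gave 6 to 15 higher and 12 to 18 lower members, with member medians of −0.13 to −0.04. For import genes it gave 5 to 11 higher and 0 to 1 lower. Over all tested genes, these fits called 2627 to 3888 higher and 2780 to 3879 lower, so all-gene counts moved too. Same-numbered libraries had correlations of 0.008, −0.397 and −0.365 between their deviations, and not every library correlated best with its own number. The largest correlations joined D replicate 2 with C replicate 3 (0.345) and D replicate 3 with C replicate 2 (0.423). The slopes on log2 length had the same sign within these pairs (0.17 and 0.05, −0.18 and −0.05). A length trend shared in this way can hide pairing, so the check cannot show whether replicate numbers pair the libraries. With the replicate number as a block, 9 members were higher and 13 lower (22% and 31.7%), beside 21.2% and 23.5% of all tested genes. With this block, the row named SLC25A6 was called (1.06).

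The direction of 3 uncalled members depended on the scaling. SLC25A20 was at −0.012 with upper quartile factors, −0.011 without a filter, −0.15 with library size only, −0.11 with length trends removed, and −0.14, −0.15 and −0.14 on the FPKM scales. SLC25A24 was at 0.016 with RLE factors, 0.017 in DESeq2 and 0.056 with length trends removed, and SLC25A44 at −0.020 with library size only and −0.016, −0.019 and −0.016 on the FPKM scales. Leaving out each library gave −0.051 to 0.10 for SLC25A20 and −0.097 to 0.097 for SLC25A24. The log2 ratio differences were −0.19 to 0.085 for SLC25A37 over SLC25A28 and −0.0069 to 0.058 for SLC25A10 over SLC25A11. SLC25A27 and SLC25A34 were filtered out at 1 CPM or 1 FPKM, and SLC25A53 at 1 FPKM only. The 6 members left untested had at most 11 counts in any library, and without a filter 10 members were higher and 15 lower.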

Other observations

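The division of reads between the pair of rows for SLC25A6 varied between libraries. The row named SLC25A6 held 34, 16 and 75 counts in D libraries and 22, 7 and 40 in C libraries, which was 2.76%, 1.55% and 5.98% of both rows in D and 2.72%, 1.04% and 3.33% in C. Taken alone, this row gave a log2 change of 1.055 ± 0.647 that was not called (adjusted p = 0.20, edgeR), and leaving out each library gave 0.31 to 1.69, with a call only without D replicate 2 (1.504). Among the 3 ADP/ATP translocases, both rows of SLC25A6 together gave 13.4%, 12.7% and 12.1% of the summed FPKM in D libraries and 10.6%, 7.64% and 14.4% in C libraries, and SLC25A5 gave 84.8% to 91.6% in all libraries.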
